A study of Homo sapiens with 4 samples.

Results

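The cytosolic ribosomal proteins are the protein subunits of the ribosome that translates nuclear-encoded mRNA, and their genes were followed here in U87MG spheres grown with or without abemaciclib. Members were chosen by symbol alone: RPL or RPS followed by a number, with A or X as the permitted suffixes, together with RPLP0, RPLP1, RPLP2 and RPSA. The rule selected 77 of the 60617 listed genes, 46 of the large subunit and 31 of the small subunit, and all 77 were among the 17207 genes tested. U87MG is an established human glioblastoma cell line. All spheres grew in DMEM/F12 with 2% B27, N2 supplement, EGF (20 ng/ml) and bFGF (20 ng/ml), and were taken at a time labelled 14, which the design text gives as days. The control group had no drug (labelled untreat, 2 libraries). The other group received abemaciclib, an inhibitor of the cell cycle kinases CDK4 and CDK6 (2 libraries). The sources used here do not give the dose, any vehicle, or whether replicates were separate cultures. All p-values thus describe the spread among the 4 libraries only, and that spread could be technical.

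Each ribosome carries one copy of nearly every ribosomal protein, except for the acidic stalk proteins of the large subunit, which are present in several copies. The mRNAs are abundant, and most begin with a C followed by a run of pyrimidines, the terminal oligopyrimidine (TOP) tract, through which the kinase mTOR and the RNA-binding protein LARP1 control their translation and stability. A surplus of free RPL5 and RPL11 binds the ubiquitin ligase MDM2.

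The TOP tract is the sequence feature that the family is known for, so the transcription start of members that fell far, fell little or rose is shown first. The sequences are from RefSeq on GRCh38.p14, with 10 bases before and 20 bases from the annotated start, 5′ to 3′ on the strand of the gene. Capitals mark the pyrimidine run from that start.
RPL10 (chrX:154398367-154398396, plus strand): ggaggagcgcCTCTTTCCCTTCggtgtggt
RPL28 (chr19:55385922-55385951, plus strand): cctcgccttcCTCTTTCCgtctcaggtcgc
RPS13 (chr11:17077648-17077677, minus strand): ctctcgctctCCTTTCgttgcctgatcgcc
RPLP0 (chr12:120201092-120201121, minus strand): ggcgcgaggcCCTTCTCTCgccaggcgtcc
RPS6 (chr9:19380217-19380246, minus strand): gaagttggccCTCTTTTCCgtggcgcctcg
RPL35 (chr9:124861938-124861967, minus strand): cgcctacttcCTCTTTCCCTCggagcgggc
RPLP1 (chr15:69452808-69452837, plus strand): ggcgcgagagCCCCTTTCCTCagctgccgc
RPSA (chr3:39406710-39406739, plus strand): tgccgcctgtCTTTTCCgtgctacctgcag
RPS4X (chrX:72277229-72277258, minus strand, no such run): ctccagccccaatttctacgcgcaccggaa
RPS28 (chr19:8321486-8321515, plus strand, no such run): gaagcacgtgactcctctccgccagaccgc

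The RefSeq table held 62 of the 77 members. Of these, 46 (74.2%) started with C and a run of at least 5 pyrimidines on the sense strand, beside 1404 of 27305 genes in the table (5.14%). These runs were 5 to 19 bases long, with a median of 8. Where a gene had several annotated starts, it counted as having the run if any of them did. In that case the sequence shown is the start with the run, or with the longest run. Transcription can also begin at positions that are not annotated. A missing run thus says only that these letters are not at the annotated starts.

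The family held a smaller share of the transcriptome after abemaciclib. Its 77 genes took 4.05% and 3.91% of all expected counts (estimated reads per gene) in the untreated libraries and 2.91% in each abemaciclib library. The means were 3.98% ± 0.0964 and 2.91% ± 0.00481 (SD, n = 2 each). Both untreated libraries lay above both abemaciclib libraries, and the exact two-sided permutation test gave p = 0.333, the smallest value that 2 against 2 libraries allow. Mitochondrially encoded genes moved the other way, with 4.27% and 4.66% of counts untreated and 11.8% and 11.7% after the drug. With these genes left out of the total, the family held 4.23% and 4.10% untreated and 3.30% in each abemaciclib library. In bulk RNA a change in the make-up of the cells and a change within cells cannot be told apart.

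**Figure D1:**
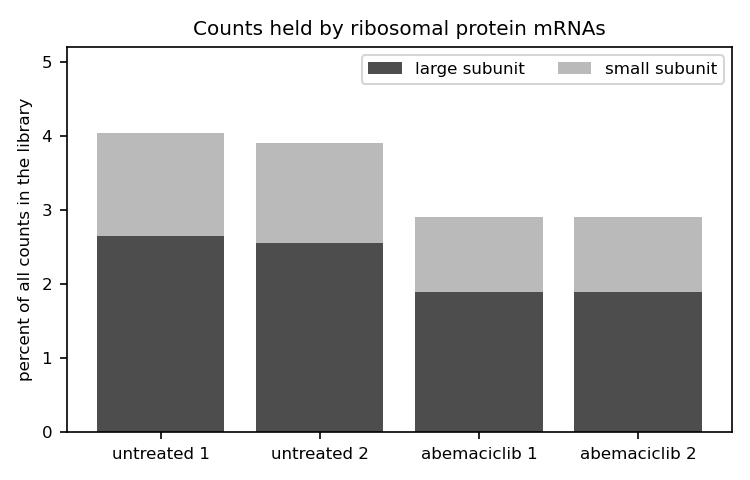
Percent of all expected counts in each of the 4 libraries (bars, from 0) held by the large subunit (dark) and small subunit (light) ribosomal protein mRNAs. The untreated bars reach 4.05% and 3.91% and both abemaciclib bars 2.91%, with both subunits smaller.

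The fall was of similar size in both subunits. Large subunit members held 2.65% and 2.56% of counts untreated and 1.89% and 1.90% after the drug, and small subunit members 1.40% and 1.35% untreated and 1.01% in each abemaciclib library. The ratio of large to small subunit counts, which does not depend on how libraries are scaled, was 1.888 and 1.890 untreated and 1.869 and 1.872 after the drug. On the log2 scale this ratio differed by -0.01 (exact permutation p = 0.333). The abemaciclib ratios were lower in both libraries, but by far less than either subunit fell. By gene, the median log2 fold change (abemaciclib over untreated) was -0.49 for the large and -0.47 for the small subunit, beside -0.01 for all genes tested.

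Nearly every member was called lower. Levels are given as CPM, the counts scaled to a common library total by the TMM method, and a gene was called at an adjusted p under 0.05 in edgeR's quasi-likelihood test over all genes. By this rule 73 of the 77 members were lower (44 large, 29 small), beside 39.3% of all genes tested. RPLP1 and RPSA were higher, beside 38.0% of all genes, and RPL35 and RPS28 did not pass the threshold. In either direction 77.3% of all genes were called, so a call alone is common in these libraries, and the members' counts depart from the background in their direction. No overlap between the groups was seen in 75 of the 77 members, beside 87.9% of all genes, and the exceptions were RPL35 and RPS28. A fall of at least 1.5-fold was less general, with 29 members (17 large, 12 small) beside 26.5% of all genes. The fold changes of members also spread less than those of all genes, with an SD of 0.27 against 1.45 on the log2 scale. All genes include many at low levels, where fold changes are less certain, and genes as abundant as the members were not compared.

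**Figure D2:**
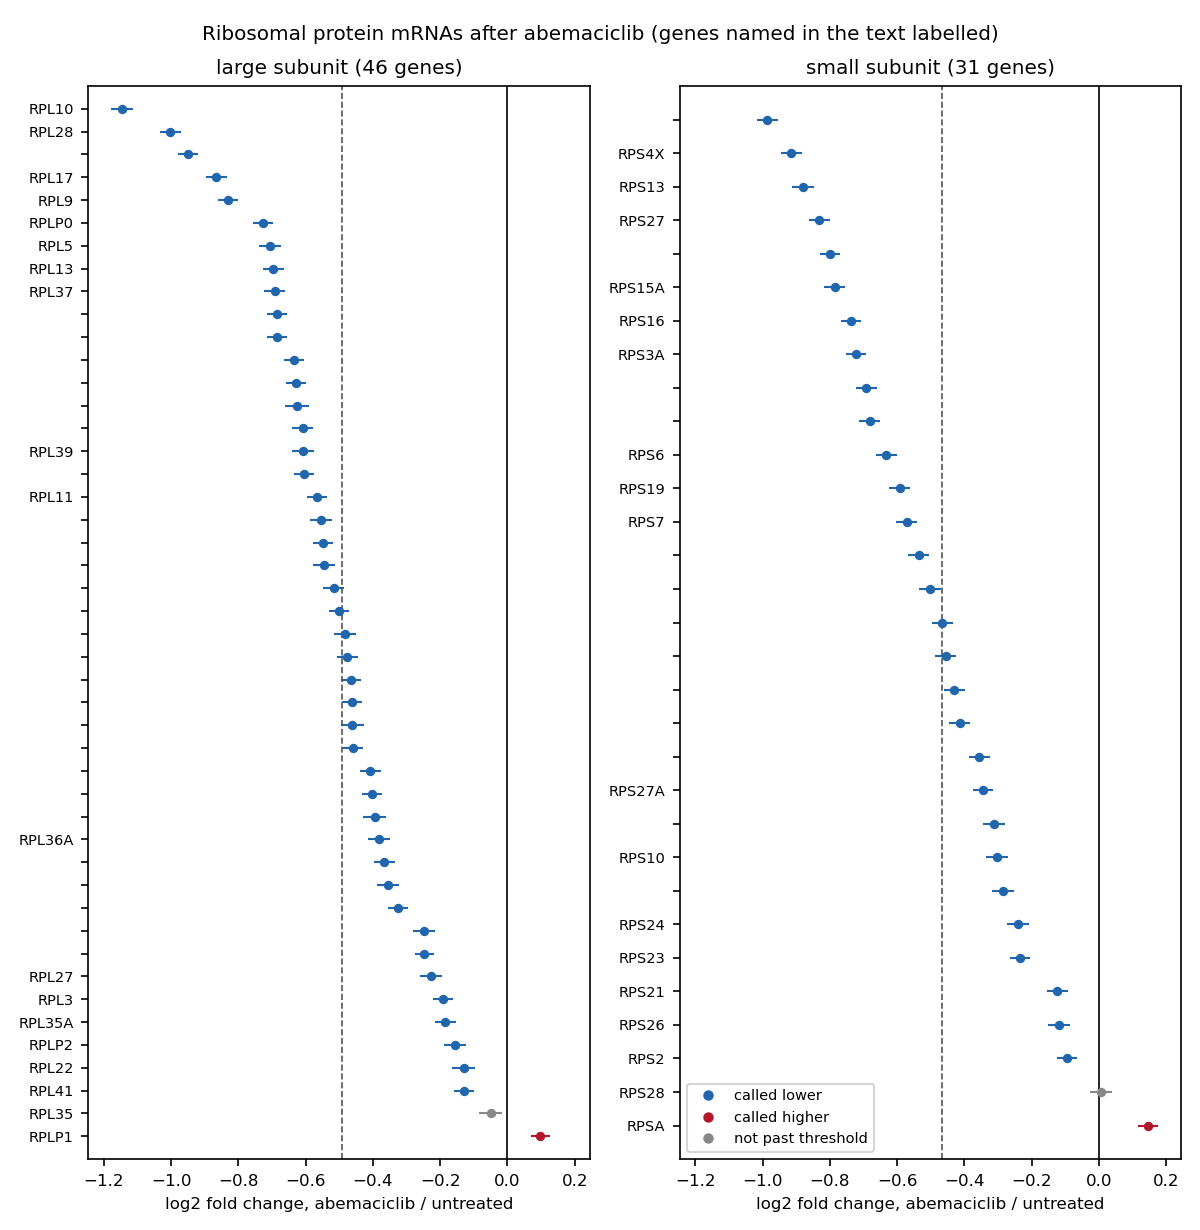
Log2 fold change of each of the 46 large and 31 small subunit mRNAs, abemaciclib over untreated (points, with the standard error as a bar); the dashed line is the subunit's median and colour gives the edgeR call, with the genes named in the text labelled. Values run from -1.15 for RPL10 to 0.15 for RPSA, with the subunit medians at -0.49 and -0.47.

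Replicates set the scale for these differences. Between the untreated libraries the members differed by a median of 0.05 on the log2 scale, replicate 1 over replicate 2, with a range of -0.0033 to 0.118. Between the abemaciclib libraries the median was 0.0038 and the range -0.0873 to 0.0633. Changes of about 0.1 are therefore near the largest difference between replicates of a group, and such members are given below with the settings that move them.

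The large subunit member that fell furthest was RPL10 (ENSG00000147403, GRCh38 chrX:154389955-154409168, plus strand), a late-joining protein near the catalytic centre that is needed for the last steps of subunit maturation. It stood at 1102 and 1025 CPM in the untreated libraries and at 487 and 475 CPM after the drug, 2.21-fold lower (log2 fold change -1.15 ± 0.03 SE, edgeR adjusted p = 5.98e-22). RPL28 (ENSG00000108107), a surface protein of the large subunit, went from 753 and 713 CPM to 371 and 361 CPM (2.00-fold lower). In both the untreated libraries lay far above the abemaciclib libraries. RPL17, which lines the peptide exit tunnel, went from 389 and 379 CPM to 211 and 210 CPM (-0.87 ± 0.03). RPL9, a protein at the base of the stalk region, went from 544.5 and 538 CPM to 299.6 and 309 CPM (-0.83 ± 0.03). These were among the largest falls in the subunit. Exons of RPL17 overlap the readthrough gene RPL17-C18orf32 on the same strand, and those of RPL10 overlap DNASE1L1 and those of RPL9 overlap LIAS on the opposite strand, so reads may be shared between them in the counting.

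Among the large falls of the small subunit was that of RPS4X (ENSG00000198034, GRCh38 chrX:72255679-72277300, minus strand), the X-linked copy of the RPS4 protein. It went from 832 and 792 CPM to 433 and 429 CPM (-0.91 ± 0.03, edgeR adjusted p = 2.75e-22). RPS13 went from 336 and 325 CPM to 181 and 179 CPM (-0.88 ± 0.03). The groups were well apart in both. RPS27, a zinc-binding protein, went from 626 and 599 CPM to 341 and 348 CPM (-0.83 ± 0.03). These members were 1.78-fold to 1.88-fold higher untreated than after the drug.

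The acidic stalk, which recruits elongation factors to the large subunit, did not move as a unit. RPLP0 (ENSG00000089157, GRCh38 chr12:120196686-120201235, minus strand), the base on which the other stalk proteins sit, went from 2230 and 2199 CPM to 1340 and 1336 CPM (-0.73 ± 0.03, edgeR adjusted p = 2.81e-20). RPLP1 (ENSG00000137818, GRCh38 chr15:69452784-69456194, plus strand), which binds RPLP0 as a dimer with RPLP2, stood at 924 and 906 CPM untreated and at 971 and 987 CPM after the drug (0.10 ± 0.03, adjusted p = 0.00351). RPLP2 went from 333 and 313 CPM to 290 and 290 CPM (-0.16 ± 0.03, adjusted p = 7.22e-05), a sign that turns when libraries are scaled without mitochondrially encoded genes (0.012) or when a trend on GC content and length is removed (0.24). RPLP0 fell while RPLP1 rose, though RPLP1 lost its call without abemaciclib replicate 2 (0.09, adjusted p = 0.0981). The count ratio of RPLP1 to RPLP0 within a library was 0.414 and 0.412 untreated and 0.725 and 0.739 after the drug. That of RPLP2 to RPLP0 was 0.149 and 0.143 untreated and 0.216 and 0.217 after the drug. Neither ratio overlapped between the groups (exact permutation p = 0.333 each, the smallest possible).

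RPSA (ENSG00000168028, GRCh38 chr3:39406689-39412542, plus strand), a small subunit protein also known as the laminin receptor, had the largest positive value of the family. It stood at 389 and 377 CPM untreated and at 422 and 425 CPM after the drug (0.15 ± 0.03, edgeR adjusted p = 6.97e-05). The groups did not overlap, but 2 alternatives ended the call. The 74 annotated RPSA pseudogenes held 13.4% of the counts of RPSA and its pseudogenes untreated and 8.32% after the drug. With the pseudogene counts added, the log2 fold change was 0.06 (adjusted p = 0.073), and with a GC and length trend removed it was 0.05 (adjusted p = 0.112). Relative to RPLP0 in the same library, RPSA stood at 0.174 and 0.172 untreated and at 0.315 and 0.318 after the drug.

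A group of members changed little. RPL35 stood at 263 and 247 CPM untreated and at 243 and 249 CPM after the drug (-0.05 ± 0.03, edgeR adjusted p = 0.173), and its groups overlapped. RPS28 stood at 272 and 257 CPM untreated and at 270 and 261 CPM after the drug (0.01 ± 0.03, adjusted p = 0.891), and its groups overlapped too. Without untreated replicate 2, RPL35 was called lower (-0.10, adjusted p = 0.00559). Scaling without mitochondrially encoded genes put both above 0 and past the threshold, RPL35 at 0.12 and RPS28 at 0.17. RPL35 overlaps WDR38, and RPS28 overlaps NDUFA7 and KANK3, on the opposite strand.

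The other small falls were in members with the same dependence on scaling. RPL41, one of the smallest proteins known, went from 821 and 801 CPM to 740 and 742 CPM (-0.13 ± 0.03, edgeR adjusted p = 2.15e-04). RPL22, an RNA-binding protein, went from 131 and 128 CPM to 121 and 116 CPM (-0.13 ± 0.04). RPS21 went from 298 and 290 CPM to 267 and 273 CPM (-0.12 ± 0.03). The groups of these 3 did not overlap. RPS26, at the mRNA exit channel, went from 198 and 189 CPM to 176 and 180 CPM (-0.12 ± 0.03). RPS2, at the mRNA entry channel, went from 529 and 521 CPM to 487 and 495 CPM (-0.10 ± 0.03, adjusted p = 0.0046). All 5 were above 0 when libraries were scaled without mitochondrially encoded genes, at 0.038 to 0.073, and RPL22, RPS21, RPS26 and RPS2 lost their call without an abemaciclib replicate. Scaled by the library total, RPS26 (-0.06) and RPS2 (-0.04) were not called either.

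**Figure D3:**
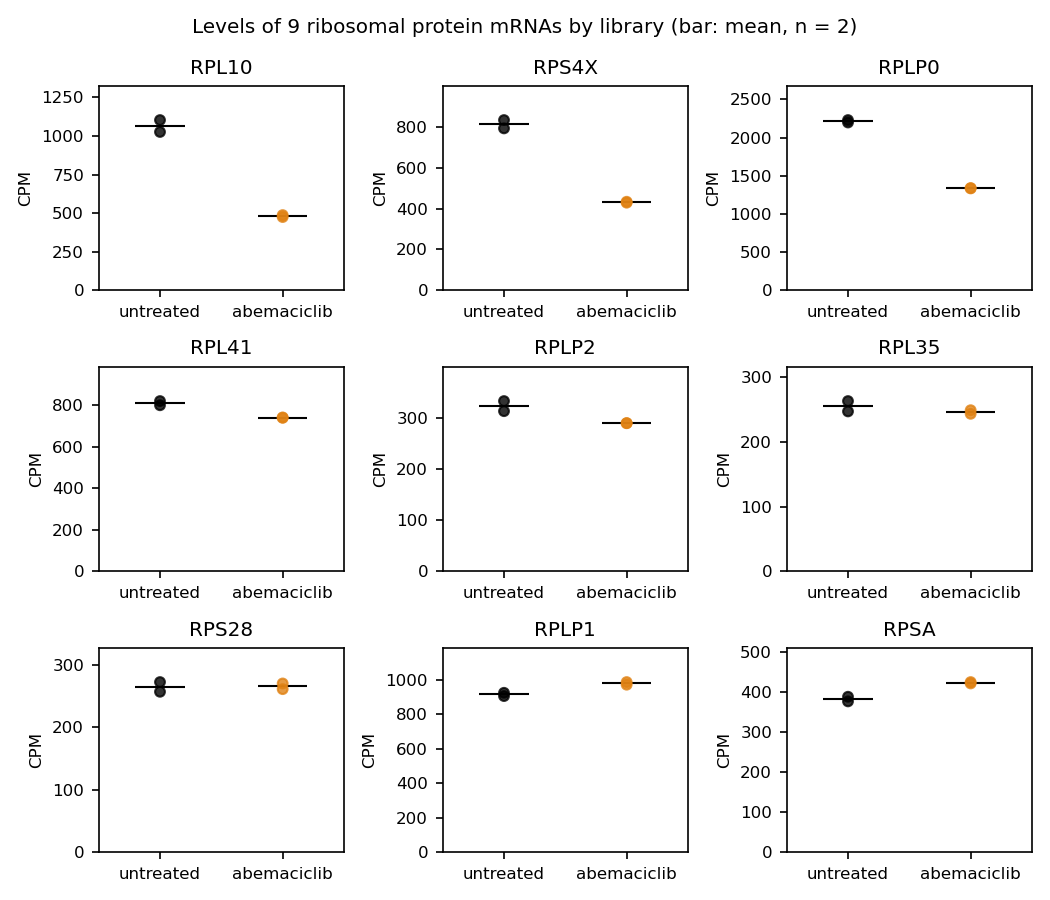
TMM-scaled CPM of 9 ribosomal protein mRNAs in each library (points) with the group mean (bar, n = 2), each axis from 0. RPL10, RPS4X and RPLP0 show a wide gap between the groups, RPL35 and RPS28 overlap, and RPLP1 and RPSA are higher after abemaciclib.

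Further members chosen by role were all called lower. RPS6, the substrate of the S6 kinases below mTOR, went from 440 and 437 CPM to 279 and 286 CPM (-0.63 ± 0.03). RPL5, which with RPL11 and 5S rRNA forms the particle that binds MDM2, went from 309 and 299 CPM to 184 and 189 CPM (-0.71 ± 0.03). RPL11 went from 548 and 528 CPM to 366 and 360 CPM (-0.57 ± 0.03). Each was past the threshold, with an edgeR adjusted p of 5.30e-17 or less. The count ratio of RPL5 to RPL11 was 0.565 and 0.567 untreated and 0.502 and 0.524 after the drug. RPS27A, made as a fusion with ubiquitin, went from 581 and 580 CPM to 457 and 456 CPM (-0.35 ± 0.03). RPL39, a small protein of the exit tunnel, went from 319 and 306 CPM to 206 and 204 CPM (-0.61 ± 0.03). RPL36A went from 247 and 239 CPM to 185 and 188 CPM (-0.38 ± 0.03), and it overlaps the readthrough gene RPL36A-HNRNPH2 on the same strand. No groups overlapped among these.

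The 50 members outside the rule for named genes (31 large, 19 small) were all called lower, with log2 fold changes from -0.79 for RPS15A to -0.18 for RPL35A and an edgeR adjusted p of 4.74e-06 or less. RPS16 (-0.74), RPS3A (-0.72), RPL13 (-0.70) and RPL37 (-0.69) were at the low end. RPL3 (-0.19), which is at the peptidyl transferase centre, RPL27 (-0.23), RPS23 (-0.24), which is at the decoding centre, and RPS24 (-0.24) were at the high end. RPS19 (-0.59), RPS7 (-0.57), RPS10 (-0.30) and RPL35A, which like RPL5, RPL11 and RPS26 are mutated in Diamond-Blackfan anaemia, were spread over much of that range. RPS10 shares exons with the readthrough gene RPS10-NUDT3.

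Scaled to the summed counts of the family, the members separated into those that fell more and those that fell less than the whole. On this scale 30 members were higher, 29 lower and 18 not called, beside 59.0% of all genes called higher and 21.5% called lower. RPSA (0.65 ± 0.04 on the log2 scale), RPLP1 (0.60 ± 0.03), RPS28 (0.51 ± 0.04), RPL35 (0.45 ± 0.04) and RPS2 (0.41 ± 0.03) stood highest. RPL10 (-0.64 ± 0.03), RPL28 (-0.50 ± 0.04) and RPS4X (-0.41 ± 0.03) were among the lowest. Both ends held members of both subunits. RPL11 (-0.06 ± 0.04, edgeR adjusted p = 0.104) did not differ detectably from the family.

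Levels can be compared between genes only per length, here as CPM per kilobase of annotated transcript (group means). RPLP0 was first untreated at 2230, followed by RPLP1 at 2056, RPL41 at 1728 and RPS27 at 1706 CPM per kilobase. After the drug RPLP1 led at 2200, then RPL41 at 1580, RPLP0 at 1347 and RPS27 at 959 CPM per kilobase. RPL22 was the lowest untreated at 165 CPM per kilobase. The length is the median of the gene's annotated coding transcripts, which sets these levels but not the fold changes.

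Genomic features that the symbol rule did not use were compared with the fold changes as a description. The 77 genes lie on 21 chromosomes. The 28 members that host small nucleolar RNA genes, which guide rRNA modification, had a median log2 fold change of -0.58 with 27 called lower. The 49 without one had -0.46 with 46 called lower. The 4 X-linked members, RPL10, RPS4X, RPL39 and RPL36A, had a median of -0.76, and the 73 autosomal members -0.48. Across the 77 members the fold change had a Pearson r of -0.081 with log2 transcript length, 0.124 with GC content and -0.179 with the mean level (Spearman -0.078, 0.128 and -0.196). All members share the same 4 libraries, and length and GC are of the annotated transcripts.

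Members with and without the pyrimidine run at the annotated start had similar fold changes. Some without it, RPS28, RPS26 and RPL10A among them, have a pyrimidine run a few bases further on. These groups therefore do not separate members with a TOP tract from members without one. Among the 46 members with the pyrimidine run, 43 were called lower, with a median of -0.46 and a range of -1.15 to 0.15. Among the 16 without it, RPS4X, RPL17, RPL9, RPL3, RPS26 and RPS28 included, 15 were called lower, with a median of -0.53 and a range of -0.91 to 0.01. RPLP1 and RPSA, the 2 members called higher, both begin with the run, as does RPL10. Outside the family, 788 tested genes in the table had the run. Of these 46.2% were called lower and 36.8% higher, with a median of -0.07. For the 10576 genes without it the shares were 37.6% and 42.6%, with a median of 0.05. In the window of 300 bases around the start, on both strands, CCGGAAG, the core of ETS factor sites, was present in 35.5% of the members and 12.2% of all genes. GGGCGG was in 58.1% and 48.3%, AAGATGG in 12.9% and 7.11%, CACGTG, the E-box, in 6.45% and 8.77%, and TATAAA in 8.06% and 14%. Members with CCGGAAG had a median of -0.46 and those without -0.49.

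Several ribosomal proteins have a paralog outside the symbol rule, and in 6 such pairs the count ratio of paralog to family gene was higher in both abemaciclib libraries than in either untreated one. The family gene of each pair was itself called lower, so a ratio can rise without a rise of the paralog, as for RPS27L below. A background share for such ratios was not computed, and the levels of 87.9% of all genes did not overlap between the groups. Of 10 paralog and ubiquitin fusion genes, RPL3L and RPL10L had no more than 1 count in any library and were not tested. Of the other 8, 4 were called higher and 3 lower, beside 38.0% and 39.3% of all genes. RPL22L1, the paralog of RPL22, went from 72.8 and 75.9 CPM to 138 and 135 CPM (0.88 ± 0.04, edgeR adjusted p = 1.07e-19). Its count ratio to RPL22 was 0.554 and 0.593 untreated and 1.14 and 1.16 after the drug, so the more abundant of the pair by counts changed. RPL26L1 went from 16.6 and 14.9 CPM to 25.05 and 24.4 CPM (0.65 ± 0.08), with a ratio to RPL26 of 0.0420 and 0.0382 untreated and 0.0984 and 0.0961 after the drug. RPL7L1, which is thought to act in nucleolar assembly, went from 61.6 and 60.7 CPM to 75.6 and 78.7 CPM (0.34 ± 0.04), with a ratio to RPL7 of 0.128 and 0.126 against 0.196 and 0.206. In all 3 both abemaciclib libraries lay above both untreated ones.

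RPS27L, the paralog of RPS27, stood at 97.2 and 97.9 CPM untreated and at 101 and 100.4 CPM after the drug, which did not pass the threshold (edgeR adjusted p = 0.266). Its ratio to RPS27 went from 0.155 and 0.163 to 0.296 and 0.289. RPL36AL fell less than RPL36A, from 139 and 132 CPM to 126 and 127 CPM (-0.10 ± 0.04), and the ratio went from 0.562 and 0.553 to 0.678 and 0.675. RPL39L went from 11.6 and 13.1 CPM to 9.06 and 10.1 CPM (-0.36 ± 0.10), and its ratio to RPL39 was 0.0363 and 0.0428 against 0.0439 and 0.0494. That last pair of groups is separated by less than the spread within them. FAU, the ubiquitin-like fusion of a small subunit protein, fell from 235 and 233 CPM to 175 and 169 CPM (-0.45 ± 0.03). Each of these ratios had an exact permutation p of 0.333, the smallest possible. Paralogs share sequence with their family gene, and the counting may have moved reads between them.

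**Figure D4:**
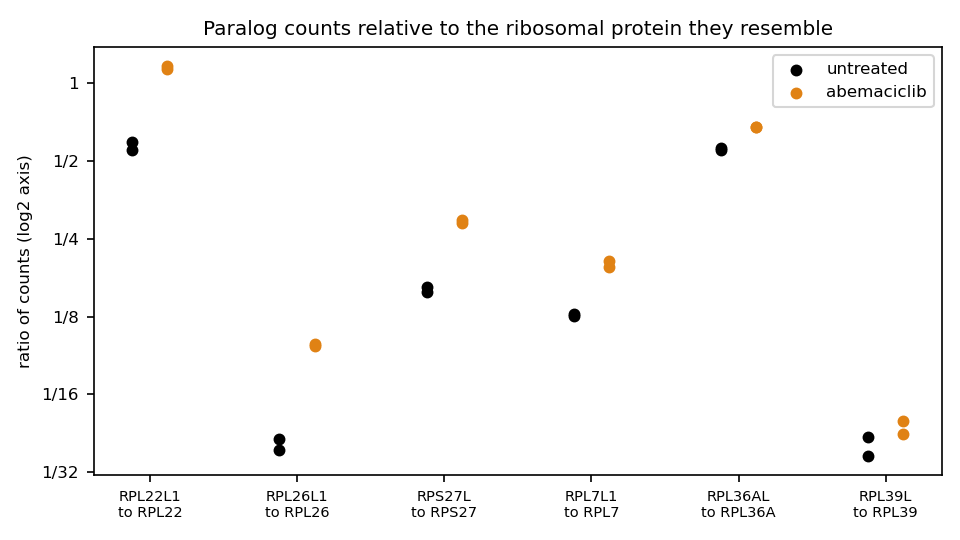
Ratio of the counts of 6 paralogs to those of the ribosomal protein gene they resemble, by library (points, log2 axis, black untreated and orange abemaciclib). The ratio of RPL22L1 to RPL22 crosses 1, from 0.554 and 0.593 to 1.14 and 1.16, and the groups of RPL39L to RPL39 are nearly adjacent.

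A list of elongation factors and other genes taken here as TOP mRNA genes held mostly lower genes. Of 25 listed, 21 were called lower and 4 higher, with a median log2 fold change of -0.51, beside 39.3% lower, 38.0% higher and a median of -0.01 for all genes. Of the 788 other genes with the run at their start, given above, 46.2% were lower. EEF1A1, which delivers aminoacyl-tRNA, went from 5164 and 4988 CPM to 2802 and 2795 CPM (-0.86 ± 0.03). TPT1, a growth-related TOP gene, went from 3563 and 3479 CPM to 1601 and 1593 CPM (-1.14 ± 0.03). EIF2A (-1.32 ± 0.05), EIF4B (-0.98 ± 0.03) and the ribosome-bound scaffold RACK1 (-0.92 ± 0.03) also fell, as did the translocase EEF2 (-0.59 ± 0.03). TMA7 (0.83 ± 0.04), EEF1B2 (0.71 ± 0.03), EEF1E1 (0.67 ± 0.13) and EIF3K (0.50 ± 0.04) rose. All of these had an edgeR adjusted p of 1.78e-05 or less. RefSeq starts were found for 19 genes of the list, and 15 of them (78.9%) had the pyrimidine run.

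Among the other initiation factors more genes rose than fell. Of 30 listed, 19 were called higher, 6 lower and 5 neither, beside 38.0% higher and 39.3% lower of all genes, with a median of 0.18. EIF2B3 (0.91 ± 0.09), EIF1AX (0.89 ± 0.06) and EIF5B (0.79 ± 0.04) rose, and EIF1, which guards start codon choice, fell from 795 and 766 CPM to 425 and 414 CPM (-0.90 ± 0.03). Of 22 regulators of TOP mRNAs, 9 were higher, 9 lower and 4 neither (15 higher and 4 lower when scaled to the summed counts of the family), which is near those shares of all genes. RPTOR (0.95 ± 0.05) and MTOR (0.90 ± 0.05), the core of mTOR complex 1, rose, as did LARP4 (1.08 ± 0.07) and LARP1 (0.53 ± 0.03). LARP1B (-1.09 ± 0.12), at a mean of 11.3 CPM untreated and 5.40 CPM after the drug, and EIF4EBP1 (-0.69 ± 0.05) fell.

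Chaperones and importers that escort new ribosomal proteins to the nucleus were mostly higher, with 10 of 15 called higher and 5 lower (38.0% and 39.3% of all genes) and a median of 0.38. TNPO1 (1.01 ± 0.05), LTV1 (0.87 ± 0.08) and GRWD1 (0.86 ± 0.09) rose, as did IPO9, from 50.9 and 52.6 CPM to 102 and 104 CPM, while IPO5 went from 254 and 257 CPM to 171 and 172 CPM (-0.58 ± 0.03). NAP1L1 (-0.74) and BTF3 (-0.70), which fell, were counted in this list and in the TOP list. Of the 9 genes listed around MDM2, 5 were higher and 4 lower, beside 38.0% and 39.3% of all genes. NOP53, a nucleolar assembly factor, fell from 98.3 and 101 CPM to 24.6 and 27.4 CPM (-1.93 ± 0.05), and CDKN1A (-1.52 ± 0.04) and MDM4 (-1.26 ± 0.06) fell.

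Ribosome quality control genes, which act on stalled ribosomes, were 10 higher, 4 lower and 4 neither of 18, beside 38.0% and 39.3% of all genes. ANKZF1, which releases chains from stalled large subunits, fell from 97.88 and 94.97 CPM to 19.6 and 17.1 CPM (-2.40 ± 0.05), and MAP3K20, the stress kinase that senses collisions, fell (-1.29 ± 0.04). HBS1L (0.74 ± 0.05), a ribosome rescue factor, and ASCC2 (0.71 ± 0.05) rose. Of 11 translation repressors and ribosome-sequestering proteins, 3 were higher, 7 lower and 1 neither, beside the same shares (8 higher and 1 lower when scaled to the summed counts of the family). IFRD2 (0.84 ± 0.05), a factor found on idle ribosomes, rose, and PAIP2 (-0.81 ± 0.04), HABP4 (-0.51 ± 0.07) and the kinase EIF2AK1 (-0.43 ± 0.03) fell. From the initiation factors to these repressors, each gene said to have risen or fallen had an edgeR adjusted p of 1.25e-07 or less. 

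**Figure D5:**
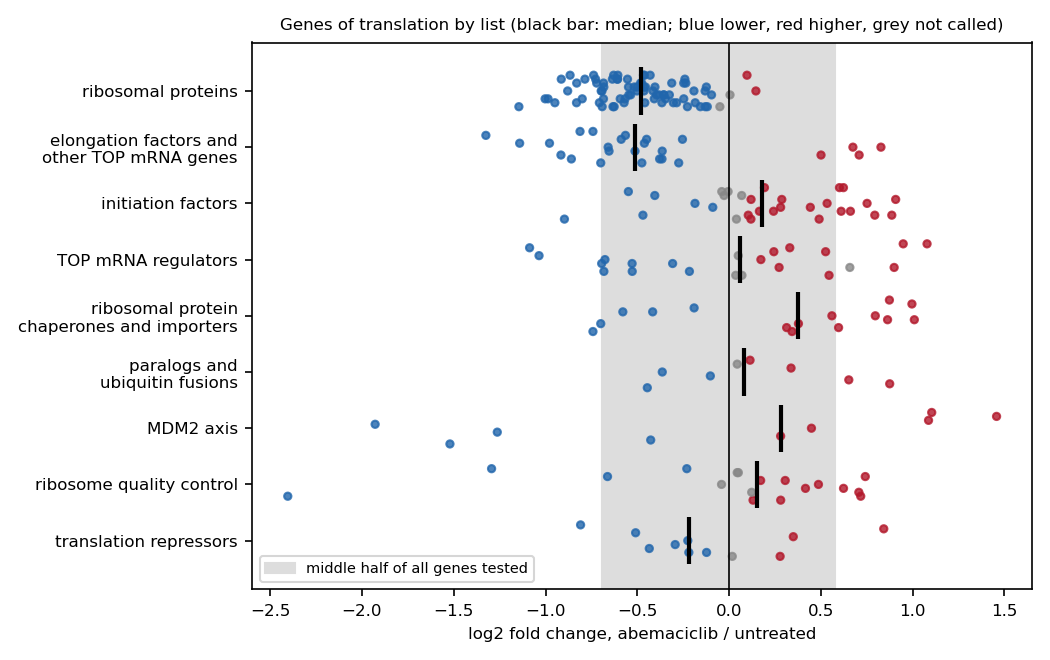
Log2 fold change of each tested gene (points, blue lower, red higher, grey not called) in the ribosomal protein family and 8 lists of translation genes, with the list median as a black bar and the interquartile range of all genes tested (-0.69 to 0.58) in grey. The family and the TOP list have medians of -0.48 and -0.51, while the initiation factors are at 0.18.

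Total counts per library were 23684260 to 33418075, and the family held 688323 to 1306626 of them. Libraries of the same group differed beyond sampling noise (chi-square per degree of freedom 3.56 untreated and 1.95 abemaciclib). The spread was small, with a coefficient of variation of 2.86% from edgeR's common dispersion. The libraries were counted as separate samples, but these values do not show that they were separate cultures. Of the glioma and astroglial markers, VIM, NES and CD44 were expressed, while GFAP had 4 to 10 counts and S100B and AQP4 no more than 3 counts in any library. The summed level of the 8 markers was 6969 to 7565 CPM untreated and 4974 to 5045 CPM after the drug. Most of it was VIM, which is also in the TOP list. VIM stood at 6250 and 5679 CPM untreated and 4330 and 4407 CPM after the drug. Of the 5 markers tested, 4 were called lower and 1 higher. CD44 (-1.48 ± 0.03), OLIG2 (-1.03 ± 0.19), NES (-0.50 ± 0.04) and VIM (-0.45 ± 0.04) fell. SOX2, under 0.5 CPM in each library, rose (2.89 ± 0.73). Leukocyte markers (6) summed to 0.868 to 0.873 CPM untreated and 0.873 to 1.22 CPM after the drug, with AIF1 among those at 0 counts. Endothelial markers (4) summed to 21.5 to 23.2 and 22.6 CPM, epithelial markers (4) to 17.0 to 18.6 and 9.96 to 10.1 CPM and neuronal markers (4) to 47.2 to 49.4 and 62.2 to 65.6 CPM. The sums join genes that went opposite ways. Each marker said here to have risen or fallen had an edgeR adjusted p of 0.014 or less. PECAM1 fell (-3.14 ± 0.18) while KDR (0.83 ± 0.10) and VWF (0.40 ± 0.15) rose, KRT8 fell (-1.39 ± 0.11) while EPCAM rose (1.17 ± 0.25), and SYT1 fell (-0.75 ± 0.11) while SNAP25 rose (0.60 ± 0.05). Erythroid markers (4) summed to 2.40 to 2.78 and 2.26 to 3.34 CPM, with ALAS2 among those at 0. The part of these shifts and of the mitochondrial share in the changes of the family was not tested.

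Ribosomal protein genes have many processed pseudogenes, and expected counts divide reads among near-identical copies. The 1136 annotated pseudogenes of members held 0.125% and 0.119% of counts untreated and 0.0915% and 0.0908% after the drug. For RPL23A they held 23.1% of the joint counts of gene and pseudogenes untreated and 29.7% after the drug, for RPS2 18.1% and 17.2%, and for RPLP0 4.26% and 6.93%. Exons of 39 of the 77 members overlap another annotated gene, 15 on the same strand and 29 on the opposite strand. Whether the counting used strand is not stated in the sources used here.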

How the data were processed

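Poly-A RNA of 4 sphere libraries (TruSeq Stranded mRNA, per the labels' protocols) was analysed from 1 deposited table per library. Per the file headers, these hold RSEM-style expected counts per gene, not scaled for depth, which the authors deposited; STAR 2.7.2b, RSEM 1.3.1 and GRCh38 appear in the submitters' processing notes, and the sources used here give no settings or annotation release. Groups and replicate numbers came from the titles. Expected counts were rounded and tested with edgeR 4.0.16 (R 4.3.3, limma 3.58.1): filterByExpr, TMM, robust quasi-likelihood F test on group, two-sided, Benjamini-Hochberg over 17207 genes, threshold 0.05. The standard error is the fold change divided by the square root of F. Coordinates, lengths and overlaps came from GENCODE 29 (77 of 77 members and 58444 of 60617 identifiers matched, 96.4%), start sequences from RefSeq. Ratios and shares used exact permutation tests over libraries.

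Values per library are given for the 5 highest and 5 lowest members of each subunit, members not called, the 3 highest per kilobase, members with set roles and tested paralogs; in other lists the called genes of largest change at a mean of at least 10 CPM are named, and the other members with a value, EEF1A1, EEF2, TMA7, EEF1B2, EEF1E1, EIF3K, LARP1, IPO5, NAP1L1 and BTF3 were named after their values were seen. LARP1B was named too, although its mean after the drug was 5.40 CPM. A few genes chosen by this rule were left out of the text. The members and lists were chosen with earlier results of these data known. Alternatives covered DESeq2 1.42.0, other scalings, no filter, pseudogene counts added, a GC and length trend, a replicate block and leaving out each library. The test was checked on simulated data. No correlation between same-numbered libraries was found (-0.0129), and nothing in the labels pairs them.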

Additional observations from a re-analysis of the deposited data

How the results depend on the processing

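Over 13 alternatives, 260 of the counts and medians kept their value within the limits set, 33 moved and 3 changed sign, and of the values of single members 315 kept direction and call, 11 lost the call, 3 gained it and 22 changed sign. The number of members called lower was 64 to 74 in every alternative except scaling to the summed members, which gave 29, as it must when the family itself is the scale. Members called higher, 2 as reported, were 5 with the total taken without mitochondrially encoded genes, 30 with the summed members, 1 with pseudogene counts added and 4 with a GC and length trend removed, and 1 to 2 when each library was left out.

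The median of all genes tested was 0.04 under the library total, 0.16 without mitochondrially encoded genes and 0.49 under the summed members, against -0.01. The median of the members was -0.43, -0.31 and 0.022 in these, -0.62 with the trend removed and -0.52 to -0.44 with a library left out. For the large subunit it was -0.44, -0.32 and 0.013, -0.64 with the trend removed and -0.52 to -0.46 with a library left out. For the small subunit it was -0.41, -0.30 and 0.038, and -0.52 with the trend removed. The large minus small median was -0.12 with the trend removed, against -0.03.

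Single values were followed for the 27 members under the naming rule. Scaled to the summed members, 9 of these changed sign, RPL36A to 0.12, RPS27A to 0.16, RPLP2 to 0.35, RPL22, RPL41 and RPS21 to 0.37, 0.37 and 0.38, RPS26 to 0.39, RPS2 to 0.41 and RPL35 to 0.45. Without mitochondrially encoded genes RPLP2 was at 0.012, RPL22 at 0.038, RPL41 at 0.039, RPS21 at 0.045, RPS26 at 0.050, RPS2 at 0.073 and RPL35 at 0.12. With the trend removed RPLP2 was at 0.24, RPS2 at 0.19 and RPL35 at 0.19, and under the library total RPL35 was at 0.0037. RPS28 ranged from -0.040 to 0.048 with a library left out.

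In the lists, scaling to the summed members gave 8 higher and 11 lower TOP genes, 1 initiation factor lower, 15 higher and 4 lower TOP regulators, 2 chaperones lower, 0 paralogs lower, 15 quality control genes higher, and 8 higher and 1 lower repressors. Without mitochondrially encoded genes 3 chaperones, 1 paralog and 3 repressors were lower. The trend removed gave 10 initiation factors lower, and DESeq2's Wald test 6 quality control genes higher. The replicate block gave 73 members lower and 2 higher and changed no call. The cause of each shift was not tested. With 2 libraries a group, exact tests of shares and ratios cannot pass the threshold, and leaving out a library assumes that the lone sample varies like the other group.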
